A study of Mus musculus with 6 samples.

Results

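The genes described here are 10 markers by which stem-like or progenitor-like cells of ovarian cancer are often recognised: Cd44, Cd24a, Prom1, Kit and Lgr5 at the cell surface, the intermediate filament gene Nes, and the transcription factor genes Sox4, Sox9, Myc and Klf4. They were chosen by symbol and found through the Ensembl gene IDs of a count table of 49315 genes, in which all 10 had a row. Of the 10 markers, 7 passed a filter on low counts that kept 16033 genes for testing. All 7 were above the filter level of 0.272 CPM (counts scaled to the library total) in all 6 libraries. Kit, Prom1 and Lgr5 did not pass it and were not tested.

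The RNA came from TKO, a mouse ovarian cancer cell line. There were 3 libraries of MNRR1-knockout (KO) TKO cells and 3 libraries of TKO cells with MNRR1 intact (WT). MNRR1 is the product of Chchd2, a protein of mitochondria and nucleus. The labels name neither the alleles that TKO itself carries, which both groups share, nor the way in which Chchd2 was disrupted. All KO libraries carry the name of 1 clone, so a property of that clone and the loss of MNRR1 cannot be told apart. Nothing in the labels says that the libraries of a genotype came from separate cultures, so the p-values speak for the spread among these 6 libraries alone, and that spread may be technical.

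Tumours of the ovary are thought to hold a fraction of cells that renew themselves and seed new growth, and such cells are sorted by surface proteins that bind the matrix, signal or sit on membrane protrusions. CD44 binds hyaluronan, CD24 is a small glycosylated protein anchored in the membrane by lipid, prominin 1 marks membrane protrusions, Kit is the receptor of stem cell factor, and Lgr5 binds R-spondins and raises Wnt signalling. Myc and Klf4 belong to the classic set of reprogramming factors, and Sox4 and Sox9 act in progenitors of many epithelia.

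Total counts ranged from 33226463 to 39969012 in KO libraries, against 35328663 to 40983999 in WT libraries. Chchd2 had 581, 717 and 658 counts in KO libraries, against 12835, 11824 and 13506 in WT libraries, so the targeted gene went with the labels in all 6. Both genotypes had high levels of Wt1, a transcription factor of the ovarian surface and of serous tumours, at 677 ± 8.60 CPM in KO libraries, against 719 ± 34.6 CPM in WT libraries (means ± SD of 3 libraries each). Keratin genes, Msln and Muc16 were abundant too. The epithelial genes Cdh1 and Muc1 and the Müllerian factor gene Pax8 were each under 1 CPM in both genotypes. Summed levels of blood cell markers were 2.85 to 5.72 CPM in KO libraries and 6.35 to 10.8 CPM in WT libraries, with 6 of 9 genes under 1 CPM in both. Of 7 mast cell markers, 4 had no count in any library, and Ms4a2 alone made up nearly all of a sum of 3.38 to 8.87 CPM in KO libraries and 38.9 to 50.03 CPM in WT libraries. Endothelial markers summed to 1.5 to 2.71 CPM in KO libraries and 0.590 to 0.781 CPM in WT libraries. Neural markers, mostly the widely expressed Map2 and Tubb3, summed to 23.5 to 29.0 CPM in KO libraries and 51.9 to 57.4 CPM in WT libraries.

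Nes, Cd24a, Cd44 and Myc were lower in KO cells, Sox4 was slightly higher, and Sox9 and Klf4 did not pass the test. A gene was called at an adjusted p under 0.05 by edgeR's quasi-likelihood test with Benjamini-Hochberg adjustment over all 16033 tested genes. Calls were frequent in this comparison: 55.7% of all tested genes were called, 27.8% lower and 27.8% higher. These were 4462 and 4463 genes. With library totals in place of TMM scaling, 3294 genes were lower and 5771 higher, and the median gene moved to 0.13 on the log2 scale. Among the markers 4 of 7 were called lower and 1 of 7 higher. The median log2 fold change of KO over WT was -1.05 over the 7 markers, beside 0.01 over all tested genes. With no filter, when Kit, Prom1 and Lgr5 enter, the median over the 10 markers was -0.0047. Amounts by which a gene rose or fell are on the log2 scale. A call at a change of at least 2-fold was less common over all genes, at 6.01% for falls and 8.1% for rises, and Nes, Cd24a, Cd44 and Myc each met it as falls. Myc met it narrowly, and its fall was under 2-fold with library totals (-0.93) or upper-quartile scaling (-0.996), and without KO replicate 1 (-0.98), KO replicate 3 (-0.80) or WT replicate 2 (-0.93). The genotypes did not overlap for these 4 genes or for Sox4, as was the case for 64.0% of all tested genes, 31.9% with KO lower and 32.1% with KO higher.

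**Figure D1:**
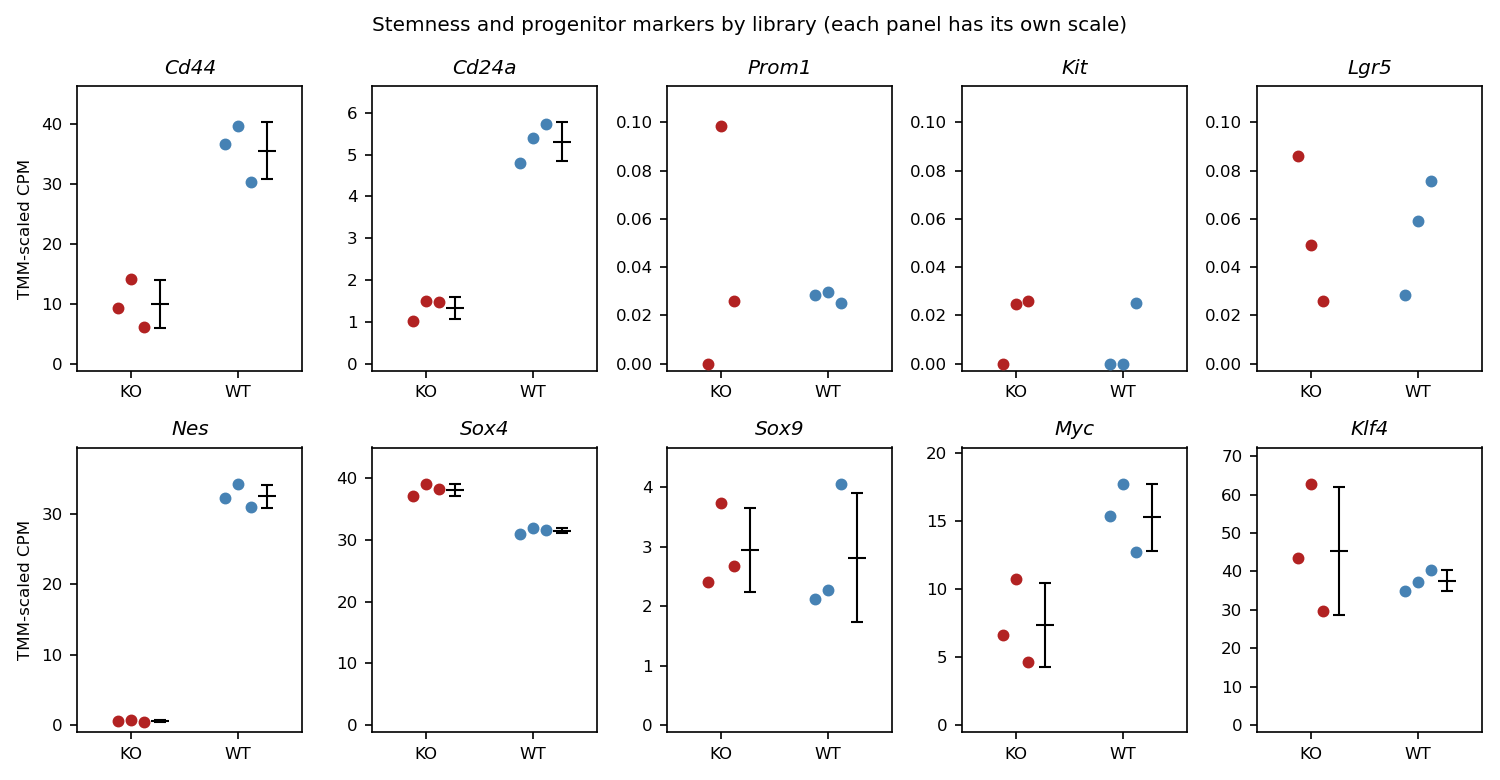
TMM-scaled CPM of the 10 markers in each library, KO to the left of WT, with each panel on its own linear scale; points are libraries, and for the 7 tested markers the bar beside them is the mean ± SD of 3 libraries. KO points lie apart from and below WT points for Cd44, Cd24a, Nes and Myc, above them for Sox4, and overlap them for Sox9 and Klf4; Prom1, Kit and Lgr5 stay at or under 0.1 CPM in all libraries.

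Nes (ENSMUSG00000004891) had the greatest change of the markers. It encodes nestin, an intermediate filament protein of neural and other progenitors, and lies at chr3:87971078-87980451 on the plus strand of GRCm38. It had 21, 28 and 17 counts in KO replicates 1 to 3, against 1125, 1161 and 1229 counts in WT replicates 1 to 3. After TMM scaling, which sets the libraries on a common size by their typical gene, these were 0.601, 0.688 and 0.438 CPM in KO libraries, against 32.2, 34.3 and 31.0 CPM in WT libraries. All KO libraries were far below all WT libraries, and the libraries within each genotype lay close together. The KO mean was 1.77% of the WT mean, and the fitted log2 fold change was -5.81 (SE 0.14, 95% interval -6.11 to -5.51, edgeR adjusted p = 5.58e-10). A fall at least as large was called for 37 of the tested genes, or 0.231%. In bulk RNA, fewer cells that express a gene and less of its RNA in each cell cannot be told apart.

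Other intermediate filament genes moved less. Of 11 listed, 7 were tested, 5 were lower, 0 were higher (1 with library totals or upper-quartile scaling), and the median log2 fold change was -0.58. By comparison, 27.8% of all tested genes were called lower and 27.8% higher. Vim, which encodes vimentin, the filament partner with which nestin co-assembles, was at 219, 323 and 165 CPM in KO libraries, against 679, 664 and 577 CPM in WT libraries. Its genotypes did not overlap, KO replicate 2 was the highest of the KO libraries, and its log2 fold change was -1.44 (SE 0.25, edgeR adjusted p = 0.00446). Synm, the gene of the nestin relative synemin, fell by 0.94 on the log2 scale, Lmna, which encodes nuclear lamins, fell by 0.76, and Des, the gene of desmin, fell by 0.58. Among the neural markers Tubb3, Map2 and Pax6 were also lower, with log2 fold changes of -1.24, -0.83 and -3.29. Their part in the Nes result was not tested.

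Cd24a (ENSMUSG00000047139), the mouse counterpart of CD24, lies at chr10:43578284-43584265 on the plus strand. It was a low-level gene here, with 36, 61 and 57 counts in KO replicates 1 to 3, against 168, 183 and 227 counts in WT replicates 1 to 3. The scaled levels were 1.03, 1.5 and 1.47 CPM in KO libraries, against 4.81, 5.40 and 5.72 CPM in WT libraries. Every WT library was above every KO library, and the fitted fall was 3.96-fold. The log2 fold change was -1.99 (SE 0.18, 95% interval -2.38 to -1.59, edgeR adjusted p = 7.82e-06). A fall at least as large was called for 372 of the tested genes, or 2.32%.

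Cd44 (ENSMUSG00000005087), the hyaluronan receptor, lies at chr2:102811141-102901665 on the minus strand. Its levels were 9.30, 14.1 and 6.19 CPM in KO replicates 1 to 3, against 36.7, 39.6 and 30.3 CPM in WT replicates 1 to 3. The genotypes did not overlap, and replicate 2 was highest in each of them. The mean was 9.88 ± 4.01 CPM in KO libraries, against 35.5 ± 4.77 CPM in WT libraries (means ± SD of 3 libraries each). The log2 fold change was -1.84 (SE 0.28, 95% interval -2.50 to -1.18, edgeR adjusted p = 0.00130). A fall at least as large was called for 411 of the tested genes, or 2.56%. Counts cover all exons together, so the long variant isoforms of CD44 and its standard isoform were not separated.

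CD44 and CD24 are often read as a pair, with stem-like fractions described by high CD44 and low CD24. The ratio of Cd44 to Cd24a counts was 9.03, 9.44 and 4.21 in KO replicates 1 to 3, against 7.63, 7.33 and 5.29 in WT replicates 1 to 3. The ranges overlapped, with KO libraries at both ends. On the log2 scale the ratio averaged 2.83 ± 0.655 in KO libraries, against 2.74 ± 0.290 in WT libraries, a difference of 0.09 (-0.11 to 0.47 with single libraries left out). By exact permutation of the libraries, two-sided, p was 0.9, where the smallest p that 3 against 3 libraries allow is 0.1. Both genes were thus lower in KO cells, with no detectable shift of their ratio at this number of libraries. The ratio is of RNA in all cells together and does not count cells of a CD44-high, CD24-low kind. On the TPM scale, which also corrects for exon length, Cd44 was at 5.09 TPM in KO libraries, against 17.1 TPM in WT libraries. Cd24a was at 1.81 TPM in KO libraries, against 6.72 TPM in WT libraries. The median tested gene was at 14.8 TPM in KO libraries, against 13.1 TPM in WT libraries.

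Genes that make, cut or bind hyaluronan, the ligand of CD44, or that tie CD44 to the cell skeleton were mostly lower as well. Of 13 listed, 11 were tested, 7 were lower, 1 was higher, and the median log2 fold change was -0.59. Over all tested genes 27.8% were called lower and 27.8% higher. Has1, a hyaluronan synthase, was at 2.72, 2.24 and 2.84 CPM in KO libraries, against 11.9, 11.4 and 9.32 CPM in WT libraries, and fell by 2.07 on the log2 scale (edgeR adjusted p = 1.60e-06). Cemip, whose product takes part in hyaluronan breakdown, was at 0.458, 0.418 and 0.309 CPM in KO libraries, against 7.15, 6.08 and 5.72 CPM in WT libraries, with a log2 fold change of -3.99 (edgeR adjusted p = 1.69e-07). Both genes had every KO library below every WT library. Hyal1, a hyaluronidase, was the gene called higher, at 3.71 ± 0.697 CPM in KO libraries, against 1.45 ± 0.0288 CPM in WT libraries. Spp1, which encodes the CD44 ligand osteopontin, fell by 1.90 on the log2 scale, with -2.91 without KO replicate 2 and -1.47 without KO replicate 3. Has2, another synthase, had 4, 5 and 0 counts in KO replicates 1 to 3, against no count in any WT library, and was not tested.

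Prom1, Kit and Lgr5 were barely detected in either genotype. Prom1 (ENSMUSG00000029086), at chr5:43993620-44102032 on the minus strand, had 0, 4 and 1 counts in KO replicates 1 to 3, against 1, 1 and 1 in WT replicates 1 to 3. Kit (ENSMUSG00000005672), at chr5:75574916-75656722 on the plus strand, had 0, 1 and 1 counts in KO replicates, against 0, 0 and 1 in WT replicates. Lgr5 (ENSMUSG00000020140), at chr10:115450311-115587780 on the minus strand, had 3, 2 and 1 counts in KO replicates, against 1, 2 and 3 in WT replicates. A count of 0 allows up to 3 counts in a library, which is 0.0732 to 0.0903 CPM at these depths. Such floors cover counting error only. Prom1 in KO replicate 2, at 4 counts, was the only value above 3 counts, so a difference in these 3 markers was not detectable at this depth.

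The genes around these receptors were measurable. Kitl, which encodes stem cell factor, the ligand of Kit, was at 9.62 ± 1.17 CPM in KO libraries, against 12.4 ± 0.465 CPM in WT libraries, with a log2 fold change of -0.37 (edgeR adjusted p = 0.0123). That call was lost when library totals replaced TMM scaling (edgeR adjusted p = 0.0803). Of 10 Kit ligand and receptor relatives, 9 were tested. Of these 4 were lower and 2 higher (3 and 3 with library totals), beside 27.8% in each direction over all tested genes. The median log2 fold change of the relatives was 0.15. It ran from -0.12 with no filter to 0.27 with library totals, being -0.0023 without KO replicate 3. Csf1, the ligand of the related receptor Csf1r, was at 206, 233 and 229 CPM in KO libraries, against 681, 688 and 642 CPM in WT libraries, and fell by 1.59 on the log2 scale (edgeR adjusted p = 2.28e-08). Its KO libraries all lay far below its WT libraries. Csf1r itself was at 0.403 ± 0.0315 CPM in KO libraries, against 1.21 ± 0.236 CPM in WT libraries. Kdr, a receptor for vascular endothelial growth factor, fell by 2.23 on the log2 scale, and Pdgfrb, a receptor for platelet-derived growth factor, rose by 2.14.

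The partners of Lgr5 were called in both directions. Of 13 listed, 8 were tested, 4 were higher and 4 lower, beside 27.8% in each direction over all tested genes. The median log2 fold change of the partners was -0.04. It had no stable sign, running from -0.26 with no filter and -0.25 without WT replicate 1 to 0.15 without KO replicate 1 and 0.37 with a filter of 1 CPM, where 4 genes were higher and 2 lower. It was 0.08 with library totals. Lgr4, the relative of Lgr5 that binds the same R-spondins, was at 74.6, 60.6 and 76.2 CPM in KO libraries, against 33.7, 34 and 35.9 CPM in WT libraries, and rose by 1.03 (edgeR adjusted p = 4.52e-06). Rspo1, an R-spondin gene, was at 27.3 ± 4.60 CPM in KO libraries, against 14.2 ± 1.72 CPM in WT libraries, and rose by 0.94. Lrp6, a Wnt co-receptor gene, rose by 0.54. Axin2, a widely used readout of Wnt signalling through beta-catenin, was at 0.429, 0.811 and 0.464 CPM in KO libraries, against 2.20, 2.33 and 2.87 CPM in WT libraries, and fell by 2.10 (edgeR adjusted p = 7.75e-05). Of the 4 partners named here, Lgr4, Rspo1 and Lrp6 were higher in KO cells, while Axin2, a gene of low level, was lower. Other partners called lower are not named.

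Prom1 relatives and the receptors that bind CD24 numbered 6, of which 5 were tested. Beside 27.8% called in each direction over all tested genes, 2 of these were higher and 2 lower. The median log2 fold change was -0.12, but it turned to 0.08 with no filter, 0.10 without KO replicate 2, 0.10 without WT replicate 1, 0.10 without WT replicate 2 and 0.07 without WT replicate 3, settings in which 6 genes were tested and 3 were higher. Siglecg, which in mouse encodes a sialic acid receptor for CD24, was at 0.773, 0.688 and 0.464 CPM in KO libraries, against 10.8, 12.8 and 8.74 CPM in WT libraries, for a log2 fold change of -4.07 (edgeR adjusted p = 2.05e-07). Selp, the gene of the CD24 ligand P-selectin, had 0, 5 and 7 counts in KO libraries, against 40, 41 and 47 in WT libraries. Both were lower in every KO library than in any WT library, but Selp passed the filter on low counts through its WT libraries alone. Ttyh1 and Ttyh3, which encode membrane proteins of the tweety family, rose by 1.53 and 0.31. Siglecg and Selp are also blood and vessel genes. Ptprc, the defining gene of blood cells, was at 0.0254 CPM in KO libraries, against 0.160 CPM in WT libraries, and the levels of the blood cell and endothelial marker lists are given above.

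**Figure D2:**
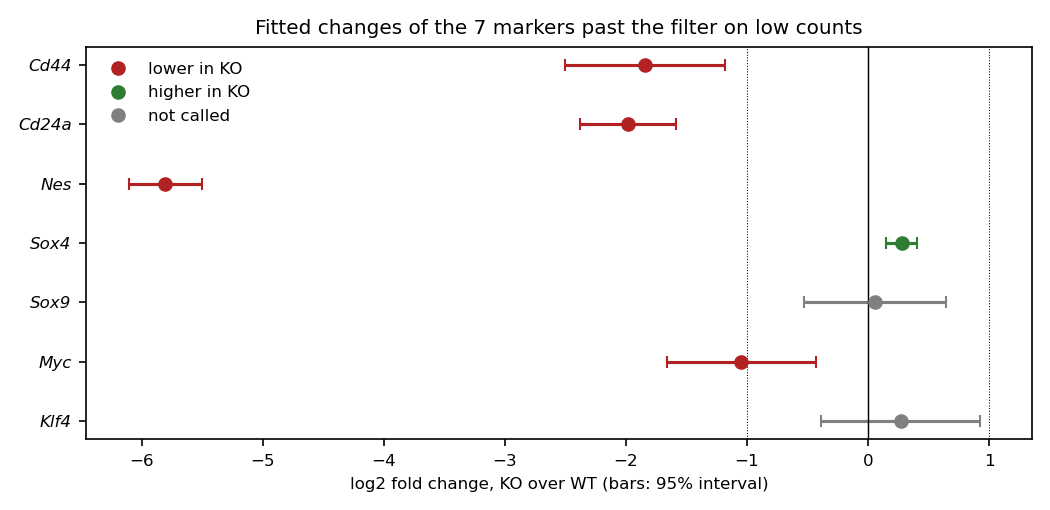
Fitted log2 fold change of KO over WT for the 7 tested markers, with 95% intervals; dotted lines mark a 2-fold change in each direction. The intervals of Cd44, Cd24a and Nes lie wholly beyond a 2-fold fall, that of Myc spans it, that of Sox4 runs from 0.15 to 0.41, and those of Sox9 and Klf4 include 0.

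Sox4 (ENSMUSG00000076431), the gene of a high-mobility-group transcription factor, was the marker called higher. It lies at chr13:28948919-28953713 on the minus strand. Its levels were 37.1, 39.0 and 38.3 CPM in KO replicates 1 to 3, against 31.0, 31.9 and 31.6 CPM in WT replicates 1 to 3. The libraries were tight within each genotype, and the lowest KO library was above the highest WT library. The log2 fold change was 0.28 (SE 0.06, 95% interval 0.15 to 0.41, edgeR adjusted p = 0.00215), which is 1.21-fold. A gene model on the opposite strand, Gm26735, overlaps Sox4 and had no count in any library.

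Sox9 (ENSMUSG00000000567), a relative of Sox4 that marks progenitors in many ducts, lies at chr11:112782224-112787760 on the plus strand. It was at 2.41, 3.73 and 2.68 CPM in KO replicates 1 to 3, against 2.12, 2.27 and 4.06 CPM in WT replicates 1 to 3. The genotypes overlapped, with a WT library the highest and another the lowest. The log2 fold change was 0.06 with a 95% interval of -0.53 to 0.65 (edgeR adjusted p = 0.869), so changes of about the size seen for Sox4 fall within it.

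Other Sox genes that could be tested were lower. Of 17 listed, 4 passed the filter and all 4 were called lower, with a median log2 fold change of -2.01 (-0.23 with no filter, when genes of very low counts enter). Among all tested genes 27.8% were called lower. Sox6 was at 0.887, 0.565 and 0.748 CPM in KO libraries, against 5.63, 5.05 and 5.06 CPM in WT libraries, and fell by 2.84 (edgeR adjusted p = 1.25e-06). Its genotypes were far apart. Sox11, which with Sox4 and Sox12 forms the SoxC group, was at 0.372 ± 0.131 CPM in KO libraries, against 1.72 ± 0.134 CPM in WT libraries, and fell by 2.21. Its KO level was near the filter level of 0.272 CPM. Sox11 may thus have passed the filter, and entered the count of 4, through its WT libraries alone. Sox8, which with Sox9 and Sox10 forms the SoxE group, was at 0.516 ± 0.0679 CPM in KO libraries, against 1.80 ± 0.126 CPM in WT libraries, and fell by 1.80. Sox12 was at 112 ± 11.3 CPM in KO libraries, against 134 ± 5.21 CPM in WT libraries, with a log2 fold change of -0.26 and an edgeR adjusted p of 0.00964, which became 0.170 with library totals. Sox2, the pluripotency factor, had 2, 3 and 3 counts in KO libraries, against 1, 0 and 0 in WT libraries.

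Klf4 (ENSMUSG00000003032), a zinc-finger factor of epithelial cells and of reprogramming, lies at chr4:55527143-55532466 on the minus strand. Its levels were 43.4, 62.8 and 29.8 CPM in KO replicates 1 to 3, against 35.0, 37.4 and 40.5 CPM in WT replicates 1 to 3. KO libraries lay both above and below the WT libraries, with an SD of 16.6 CPM among KO libraries and 2.74 CPM among WT libraries. The log2 fold change was 0.27 (SE 0.27, 95% interval -0.39 to 0.93, edgeR adjusted p = 0.432). Single libraries decided it: the value was -0.045 without KO replicate 2, and 0.50 with a call (edgeR adjusted p = 0.0317) without KO replicate 3.

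The Klf family moved in both directions. Of 16 listed relatives of Klf4, 11 were tested, 4 were higher and 4 lower, and the median log2 fold change was 0.07. These shares, 36.4% each, were near the 27.8% called in each direction over all tested genes. The values below thus describe single genes and not the family. The balance of 4 and 4 rested on the scaling, since 6 were higher and 2 lower with library totals (median 0.19). The median was 0.22 without KO replicate 2 and 0.01 without KO replicate 3, and 2 genes were lower without KO replicate 1 or without WT replicate 1. Klf2, a relative named for its role in lung and vessels, was at 22.4, 31.4 and 24 CPM in KO libraries, against 15, 14.4 and 16.1 CPM in WT libraries, and rose by 0.77. Klf5, which can stand in for Klf4 in mouse stem cells, was at 3.46, 3.51 and 3.82 CPM in KO libraries, against 5.78, 4.87 and 5.67 CPM in WT libraries, and fell by 0.60 (edgeR adjusted p = 0.00308). Neither gene's genotypes overlapped. Klf11 rose by 0.60 and Klf16 fell by 0.73.

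Myc (ENSMUSG00000022346), which encodes a driver of growth and ribosome production, lies at chr15:61985391-61990374 on the plus strand. It was at 6.64, 10.8 and 4.67 CPM in KO replicates 1 to 3, against 15.4, 17.7 and 12.7 CPM in WT replicates 1 to 3. The genotypes did not overlap, but KO replicate 2 came near the lowest WT library. The mean was 7.36 ± 3.11 CPM in KO libraries, against 15.3 ± 2.48 CPM in WT libraries (means ± SD of 3 libraries each). The log2 fold change was -1.05 (SE 0.27, 95% interval -1.66 to -0.43, edgeR adjusted p = 0.00980). With no filter on low counts the log2 fold change was -1.06, but the call was lost, at an edgeR adjusted p of 0.0665.

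**Figure D3:**
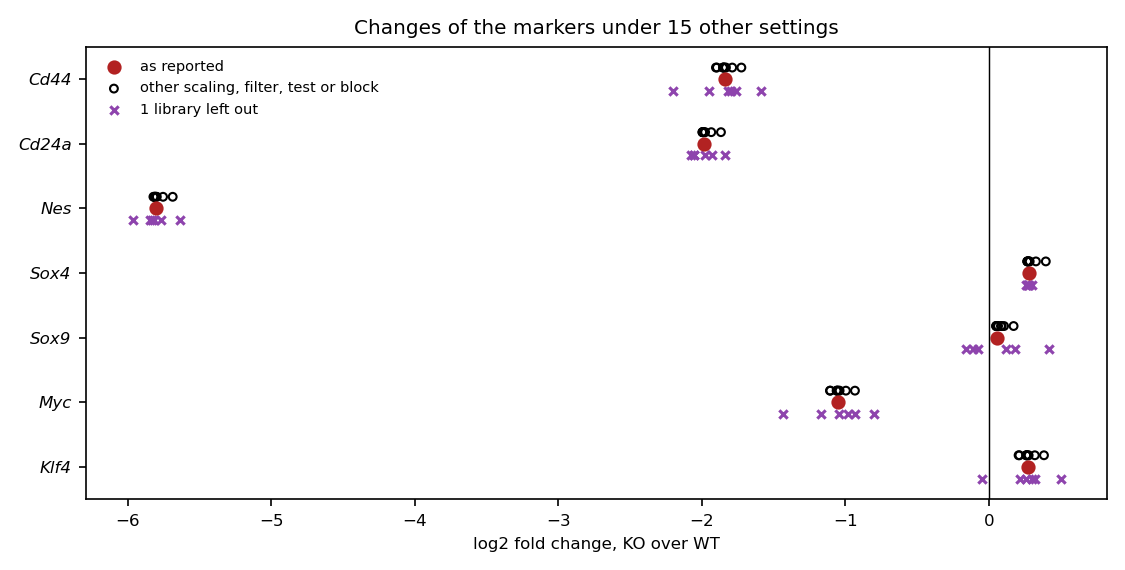
Log2 fold change of KO over WT for the 7 tested markers as reported (filled points), under other scalings, filters, tests or the replicate block (open circles), and with 1 library left out (crosses). Nes, Cd24a, Cd44 and Myc stay below 0 and Sox4 above it in all settings, while crosses of Sox9 and Klf4 fall on both sides of 0.

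Myc was a minor member of its own family in this line. Mycn, the paralog best known from neuroblastoma, was at 392, 458 and 321 CPM in KO replicates 1 to 3, against 978, 951 and 901 CPM in WT replicates 1 to 3. All KO libraries were below all WT libraries, and the log2 fold change was -1.27 (edgeR adjusted p = 1.61e-05). Per exon length, Mycn was at 415 ± 63.5 TPM in KO libraries, against 934 ± 56.8 TPM in WT libraries, while Myc was at 9.44 TPM in KO libraries, against 18.4 TPM in WT libraries. Mycn made up 95.4% of the summed TPM of Myc, Mycn and Mycl in KO libraries, against 97.5% in WT libraries. The share of Myc was 2.12% in KO libraries, against 1.91% in WT libraries. Mycl went the other way, at 9.96, 10.3 and 14.7 CPM in KO libraries, against 6.49, 6.94 and 6.37 CPM in WT libraries, with a log2 fold change of 0.82 (edgeR adjusted p = 8.25e-04).

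Max, the partner without which Myc proteins do not bind their sites, was at 97.9 ± 13.1 CPM in KO libraries, against 131 ± 3.61 CPM in WT libraries, for a log2 fold change of -0.42 (edgeR adjusted p = 0.00140). Of 14 genes of the Myc network, all were tested, 5 were higher and 3 lower, and the median log2 fold change was 0.11. With upper-quartile scaling 8 were higher and 3 lower, and with library totals 8 were higher and 2 lower (median 0.23). Within it, 6 genes encode proteins that bind Max in place of Myc. Beside 27.8% called in each direction over all tested genes, 3 of these 6 were higher and 0 lower. Mxi1 was at 38.5, 33.8 and 44.4 CPM in KO libraries, against 14.4, 14.3 and 18.8 CPM in WT libraries, and rose by 1.29. Mxd4 was at 89.1, 60.4 and 110 CPM in KO libraries, against 41.7, 40.2 and 42.6 CPM in WT libraries, and rose by 1.06. Mxd1 rose by 0.86, and in all 3 genes every KO library was above every WT library. Mlxipl, which encodes a sugar-responsive factor that pairs with Mlx, rose by 1.10.

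Genes widely used as targets of Myc proteins were lower almost throughout. Of 24 listed, all were tested, 22 were called lower and 1 higher, and the median log2 fold change was -0.60, beside 27.8% called lower and a median of 0.01 over all tested genes. Odc1, the first enzyme of polyamine synthesis, was at 104, 135 and 87.0 CPM in KO libraries, against 295, 291 and 270 CPM in WT libraries, and fell by 1.39 (edgeR adjusted p = 5.86e-05). Srm, the spermidine synthase gene of the same pathway, was at 101 ± 28.7 CPM in KO libraries, against 232 ± 9.44 CPM in WT libraries, and fell by 1.19. Rrp9, which encodes a ribosomal RNA processing factor, fell by 1.06. All 3 had every KO library below every WT library. The gene called higher, the cyclin gene Ccnd2, was at 12.8, 18 and 3.4 CPM in KO libraries, against 2.00, 1.89 and 1.54 CPM in WT libraries, and rose by 2.66. Its call was lost without KO replicate 2 (log2 fold change 2.15, edgeR adjusted p = 0.0817) and with no filter (2.65, edgeR adjusted p = 0.0774). Apex1, a DNA repair gene, was not called.

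**Figure D4:**
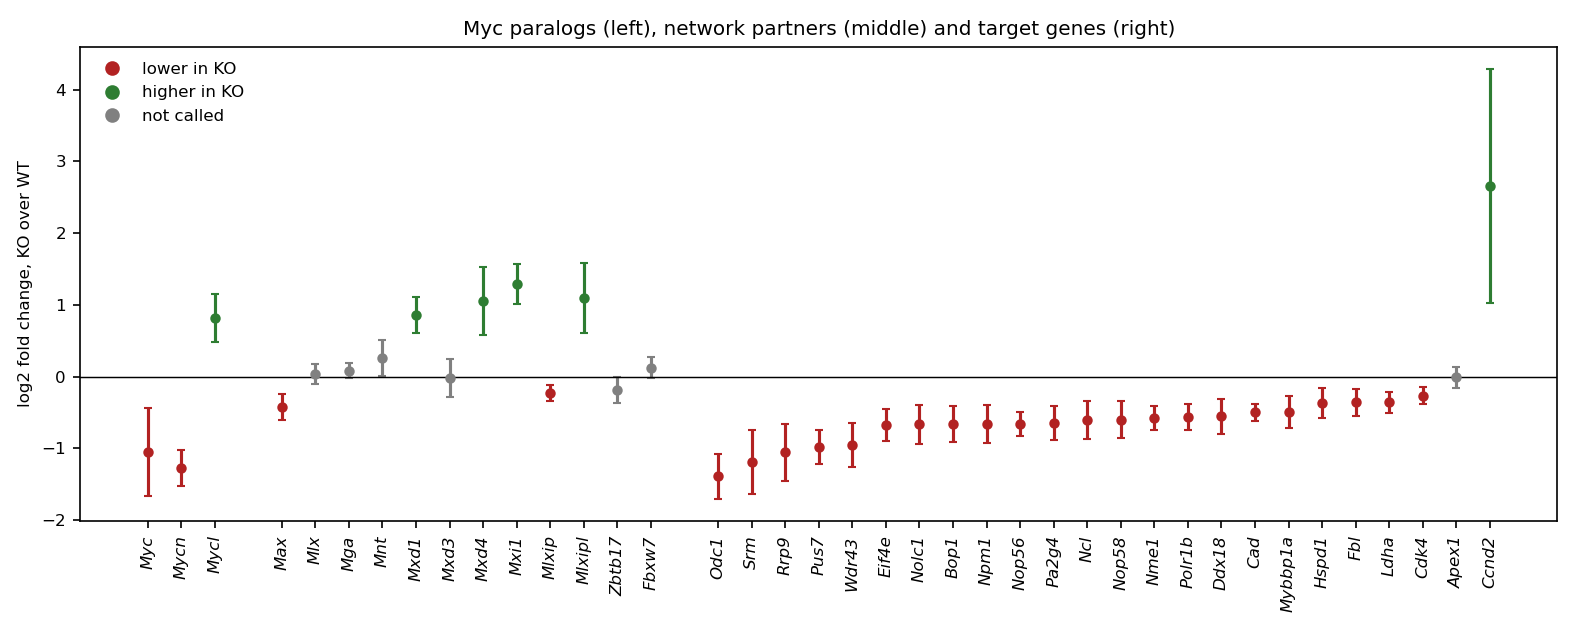
Log2 fold change of KO over WT with 95% intervals for Myc and its paralogs (left), network partners (middle) and target genes (right), coloured by call. Mycl, Mxd1, Mxd4, Mxi1 and Mlxipl are called higher, and 22 of the 24 target genes are called lower.

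KO replicate 2 was often the highest KO library in these genes. It was the highest of the 3 KO libraries for all 7 tested markers and for 23 of the 24 Myc target genes, beside 39.6% of all tested genes and 71.6% of the genes called lower in KO. For Nes, Cd24a, Cd44 and Myc, which were lower in KO, it was thus the KO library nearest to WT. For Sox4 it was the farthest from WT, and for Klf4 it lay above WT and farther off than KO replicate 1. In Cd24a and Sox4 it was close to another KO library. Without KO replicate 2, the log2 fold change was -2.20 for Cd44 and -1.44 for Myc, and the median of the target genes was -0.76, with 22 called lower. Its part in the results was not tested beyond these values.

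The sequences just before the RefSeq starts are shown for Nes, Cd44 and Sox4, since these called markers had an entry in the promoter table, and for Klf4, because it alone of the markers held the E-box letters. Of the 10 markers, 6 matched (Cd44, Nes, Klf4, Prom1, Kit and Sox4). Each run is the 250 bases before a start on GRCm38.p6, 5′ to 3′ on the gene's strand: chr3:87970843-87971092 on the plus strand for Nes, chr2:102901666-102901915 on the minus strand for Cd44, chr13:28953700-28953949 on the minus strand for Sox4 and chr4:55532476-55532725 on the minus strand for Klf4. Capitals mark, on either strand, the letters TGGGAA, which are the core bound by Rbpj. They also mark the GC box, GGGCGG, to which Sp and Klf proteins bind. The E-box, CACGTG, to which Myc binds with Max, is marked likewise.
Nes: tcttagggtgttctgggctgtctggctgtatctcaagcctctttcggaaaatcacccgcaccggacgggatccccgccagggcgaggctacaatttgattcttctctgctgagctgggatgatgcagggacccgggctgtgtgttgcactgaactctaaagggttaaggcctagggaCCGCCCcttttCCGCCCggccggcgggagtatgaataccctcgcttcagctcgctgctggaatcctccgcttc
Cd44: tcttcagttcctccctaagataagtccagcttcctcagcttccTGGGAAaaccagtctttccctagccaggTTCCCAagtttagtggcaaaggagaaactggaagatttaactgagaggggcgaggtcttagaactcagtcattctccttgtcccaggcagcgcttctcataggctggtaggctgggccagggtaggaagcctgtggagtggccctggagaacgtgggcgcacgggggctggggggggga
Sox4: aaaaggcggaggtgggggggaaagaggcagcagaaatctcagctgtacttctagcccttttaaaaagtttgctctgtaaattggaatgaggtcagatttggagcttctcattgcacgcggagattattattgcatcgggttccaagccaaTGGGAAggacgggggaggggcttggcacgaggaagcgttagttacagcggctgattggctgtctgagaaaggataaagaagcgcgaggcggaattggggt
Klf4: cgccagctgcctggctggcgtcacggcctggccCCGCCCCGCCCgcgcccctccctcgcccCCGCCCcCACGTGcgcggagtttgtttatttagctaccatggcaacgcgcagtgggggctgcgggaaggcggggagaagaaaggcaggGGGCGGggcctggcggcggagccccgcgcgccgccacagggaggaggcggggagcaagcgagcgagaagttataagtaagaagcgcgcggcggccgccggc

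Rbpj, the DNA-binding protein of the Notch pathway, was searched for because MNRR1 is known to act with it in the nucleus. Its core letters were in 3 of the 6 marker promoters (Cd44, Prom1 and Sox4) and in 21.6% of all 32851 promoters of the table. The GC box was in 4 of 6 (Kit, Klf4, Nes and Prom1) and in 32.7% of all promoters. The E-box was in 1 of 6, Klf4, and in 6.02% of all promoters. Among the 4 GC boxes of Klf4, the first shares a base with the next, and another is parted from the E-box by 1 base. A match is a run of letters and not a bound site, and these short motifs occur in many promoters.

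Among the Myc target genes, 19 of 24 had a promoter entry, and 6 of these 19 held the E-box (Apex1, Cdk4, Eif4e, Hspd1, Ldha and Nme1) in at least 1 of their windows. Cdk4, a cell cycle kinase gene, and Ldha, the gene of lactate dehydrogenase A, are shown as examples. Cdk4 had the most copies of these genes in a window, and Ldha had as many as Eif4e. The window of Cdk4 is chr10:127063285-127063534 and that of Ldha chr7:46845554-46845803, both on the plus strand of GRCm38.p6, with capitals as above. Cdk4 held 4 copies of CACGTG, and its log2 fold change was -0.26. Ldha held 2 copies, and its log2 fold change was -0.36. Odc1, the target gene with the greatest fall, did not hold these letters in its window. The GC box was in 16 of the 19 genes and the Rbpj core in 8 of 19, so other letters were frequent too. These counts are of genes, some with more than 1 window. The shares given above are of all promoters, so the measures are not alike.
Cdk4: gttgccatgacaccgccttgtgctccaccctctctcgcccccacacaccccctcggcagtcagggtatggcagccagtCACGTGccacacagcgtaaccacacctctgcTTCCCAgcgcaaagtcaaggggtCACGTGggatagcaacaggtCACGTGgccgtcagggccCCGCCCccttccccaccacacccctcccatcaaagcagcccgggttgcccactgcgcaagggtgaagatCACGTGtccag
Ldha: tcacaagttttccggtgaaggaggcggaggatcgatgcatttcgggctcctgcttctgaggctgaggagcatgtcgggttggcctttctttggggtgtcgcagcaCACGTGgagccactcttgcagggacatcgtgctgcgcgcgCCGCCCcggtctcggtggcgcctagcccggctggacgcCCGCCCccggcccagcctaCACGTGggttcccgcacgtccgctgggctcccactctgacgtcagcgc

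Other genes used to recognise stem-like cells were divided. Of 24 listed, 21 were tested, and the median log2 fold change was -0.18. Beside 27.8% called in each direction over all tested genes, 9 were lower and 3 higher. With library totals 7 were lower and the median was -0.06, and without KO replicate 2 these were 11 and -0.29. Lin28b, which encodes an RNA-binding protein that blocks the maturation of let-7 microRNAs, had 4, 3 and 4 counts in KO libraries against 483, 375 and 421 in WT libraries. Thy1, a surface glycoprotein gene, had no count in any KO library and 69, 92 and 85 counts in WT libraries, so its KO level was at least 86.8-fold lower, taking 3 counts over the KO group as the floor. Both were at or near the floor in every KO library, and both passed the filter through their WT libraries. Lin28b averaged 0.0971 CPM in KO libraries, against 11.8 CPM in WT libraries.

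Aldh1a1, an aldehyde dehydrogenase gene whose activity is used to sort ovarian tumour cells, was at 1.09, 1.45 and 1.55 CPM in KO libraries, against 3.4, 2.54 and 3.83 CPM in WT libraries. Its genotypes did not overlap, and its edgeR adjusted p was 5.32e-04. Its relative Aldh1a2 was far more abundant and moved the other way, at 905 ± 21.7 CPM in KO libraries, against 686 ± 14.4 CPM in WT libraries, with a log2 fold change of 0.40. Aldh1a2 was outside the rule for named genes and was chosen after its values were seen. Itga6, an integrin gene of epithelial stem cells, was at 13.5 ± 1.26 CPM in KO libraries, against 31.9 ± 1.91 CPM in WT libraries, and fell by 1.24 (edgeR adjusted p = 1.55e-06).

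**Figure D5:**
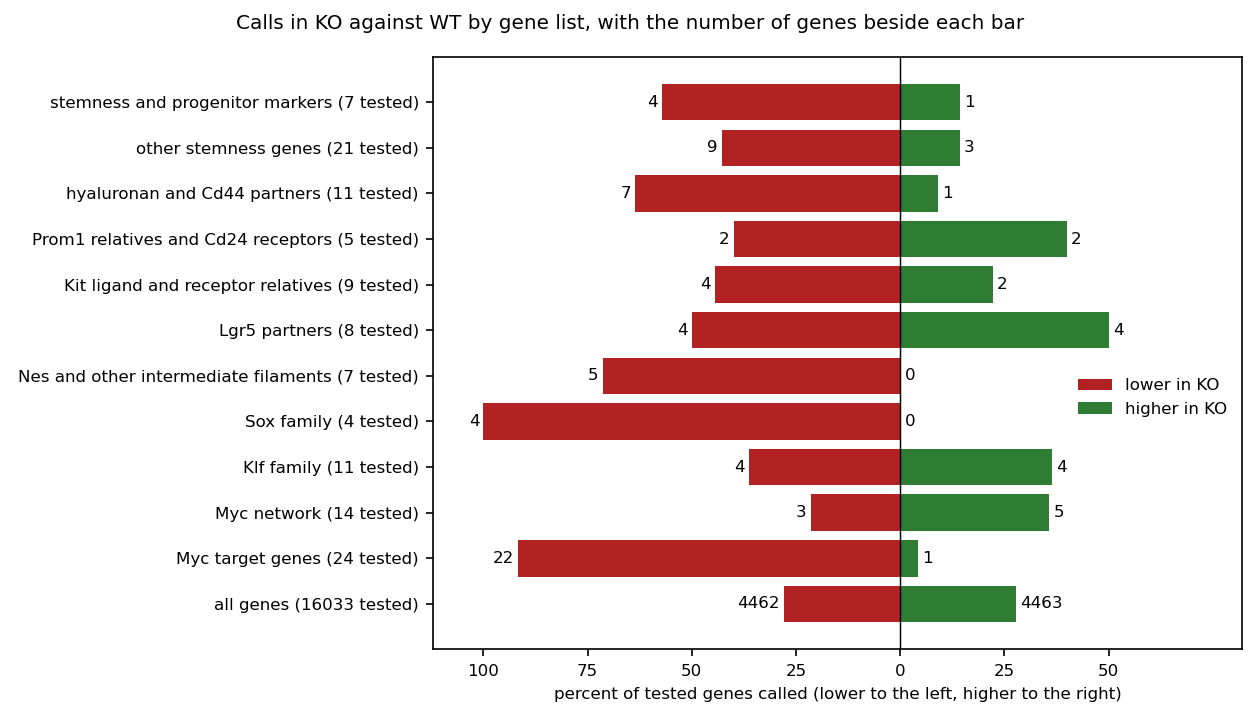
Percent of tested genes called lower in KO (bars to the left) or higher in KO (bars to the right) in each gene list, with the number of genes beside each bar and all tested genes in the bottom row. Myc target genes have 22 of 24 called lower, and 4 of 7 markers are called lower and 1 higher, beside 4462 lower and 4463 higher among all 16033.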

How the data were processed

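RNA sequencing libraries of 3 KO and 3 WT samples were compared. The authors deposited an unnormalized count of reads for each Ensembl gene, made with bcl2fastq 2.17, Trimmomatic 0.36, STAR 2.5.2b and Subread 1.5.2 on GRCm38 (mm10), per the submitters' processing notes, which also list DESeq2. Which annotation release and strand setting were used, and how multiply mapped reads were handled, is not given in the sources used, so reads of overlapping genes or near-identical copies can be misassigned. Among annotated transcripts, sequences of at least 95% identity over 150 bases were found for Prom1 and Sox4 alone of the markers, with at most 3 counts per library.

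Symbols and coordinates came from GENCODE M21 on GRCm38 (49056 gene IDs matched, 259 did not). Counts were filtered with filterByExpr (minimum count 10), scaled by TMM and tested with edgeR 4.0.16 in R 4.3.3 by a robust quasi-likelihood fit with a dispersion trend and genotype as the only term, checked on simulated data. P-values were adjusted over 16033 genes and called under 0.05. CPM are TMM-scaled, and TPM use summed exon length. The fitted changes are log2 ratios of KO over WT.

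The markers, the related lists and the rule for named genes were chosen with earlier results of these data known. The rule names all 10 markers, Chchd2, 10 related genes whatever their values, up to 4 called genes per related list that reach 1 CPM and changed most, and the neighbours of each marker. Genes named outside it include Aldh1a2, Mxd1, Cdk4, Ldha, Apex1 and single genes of the ovarian and other cell type marker lists. Alternatives were other scalings, filters and thresholds, DESeq2 1.42.0, limma voom (limma 3.58.1), a replicate block and omission of each library.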

Additional observations from a re-analysis of the deposited data

How the results depend on the processing

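Of 105 values of the 7 tested markers under 15 other settings, 99 kept their direction and their side of the threshold. Myc lost its call with no filter. The number of markers called higher was 1 to 2 when single libraries were left out, being 2 without KO replicate 3, where Klf4 was called; the number called lower was 4 throughout those fits. With single libraries left out, Sox9 ran from -0.16 to 0.42, being -0.16 without KO replicate 2, -0.11 without WT replicate 1 and -0.08 without WT replicate 2, and Klf4 ran from -0.045 (without KO replicate 2) to 0.50. With library totals in place of TMM, 1700021F05Rik (0.0054) and Cnot2 (0.039) changed sign, the median of all genes was 0.13, and 5771 genes were higher and 3294 lower, against 4463 and 4462. Under that scaling Sox4 was at 0.40. Of 945 values of 63 other named genes, 917 kept direction and side. All called genes numbered 6887 at a threshold of 0.01 and up to 10002 without KO replicate 2. Library names give the same set numbers to both genotypes, and what a set was is not said. Same-numbered libraries deviated together with correlations of -0.09, 0.08 and 0.09 (0 of 3 over 0.1), so the numbers were not read as pairs. Cd44 and Myc, though, had replicate 2 highest and replicate 3 lowest in both genotypes. With a replicate block, 1 marker was higher and 4 lower, and 8878 genes were called. The edgeR adjusted p was then 3.30e-07 for Cd44 and 1.97e-05 for Myc. The limits are 1 KO clone, 3 libraries per genotype and counts too low to test Kit, Prom1 and Lgr5.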

Other observations

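The nearest tested protein-coding genes on either side of the 10 markers were 20 in all, of which 5 were higher in KO cells, 9 lower and 6 not called by edgeR's quasi-likelihood test with Benjamini-Hochberg adjustment. Over all tested genes 27.8% were called higher and 27.8% lower. The share of neighbours called higher was thus near that of all genes, and the share called lower, 9 of 20, was above it. That excess was not tested. Slc1a2, a glutamate transporter gene 20.4 kb from Cd44, was at 97.7 ± 18.6 CPM in KO libraries, against 14.2 ± 1.52 CPM in WT libraries (means ± SD of 3 libraries each), a log2 fold change of 2.78 (edgeR adjusted p = 1.04e-06) beside -1.84 for Cd44. Crabp2, which encodes a retinoic acid binding protein and lies 17.7 kb from Nes, was at 7.10 ± 1.58 CPM in KO libraries, against 18.8 ± 0.358 CPM in WT libraries, a log2 fold change of -1.40. Fgfbp1, 11.8 kb from the barely detected Prom1, was at 19.4 ± 1.43 CPM in KO libraries, against 6.04 ± 0.202 CPM in WT libraries, and rose by 1.69. Zfc3h1, 17.5 kb from Lgr5, rose by 0.62. Gpatch4, on the other side of Nes, fell by 0.87, and Tapt1, on the other side of Prom1, fell by 0.82. Kdr, 276 kb from Kit, fell by 2.23, and Map2k6, 2257 kb from Sox9, rose by 2.27. The other neighbours that were called changed less than Zfc3h1. The neighbours of Cd24a, 1700021F05Rik and Qrsl1, were not called.

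Of 12 markers of ovarian surface and tumour cells, 11 were tested, 4 were lower and 2 higher, with a median log2 fold change of -0.29. This is close to the 55.7% called among all tested genes, so the values below describe single genes and not the list. These genes are outside the rule for named genes, and Krt7 and Muc16 had the lowest and highest log2 fold changes of the list. Krt7, a keratin gene of ovarian epithelium, was at 73.5, 94.5 and 76.0 CPM in KO libraries, against 307, 321 and 271 CPM in WT libraries, and fell by 1.88 on the log2 scale (edgeR adjusted p = 7.43e-07). Msln, which encodes mesothelin, was at 108 ± 7.33 CPM in KO libraries, against 281 ± 11.7 CPM in WT libraries, and fell by 1.38. Muc16, which encodes the tumour antigen CA125, was at 444, 327 and 471 CPM in KO libraries, against 297, 284 and 321 CPM in WT libraries, and rose by 0.46 (edgeR adjusted p = 0.0103).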
